A study of Mus musculus with 4 samples.

Results

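The receptors described here are 9 cell surface proteins through which hematopoietic stem cells (HSCs) and early progenitors receive growth factors, cytokines and a chemokine, namely Kit, Flt3, Tek, Csf2rb, Csf3r, Il6st, Il1r1, Il7r and Cxcr4. They were picked by name, and all 9 were matched by Ensembl gene identifier among the 42367 genes listed in the count tables. RNA was sequenced from 2 populations sorted from the bone marrow of C57Bl6 mice, HSCs gated as Lin- cKit+ Sca1+ with Cd48- CD150+, and HSCs low for CD41 and CD9 (CD41low/CD9low HSCs), each from Gfi1b wild type (WT) and Gfi1b knockout (KO) mice. Gfi1b is a transcriptional repressor of blood cells, and the question put to these libraries was how its loss alters gene expression in HSCs. There was 1 library per genotype and population, so no difference between a KO library and its WT library has a replicate check.

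The sample titles name the gene Gfi1, whereas the sample characteristics and the methods name Gfi1b, which is followed here. KO mice were Rosa-Cre Gfi1b fl/fl. The methods give the WT mice as Rosa-Cre Gfi1b wt/fl, so that WT cells would also carry Cre and 1 floxed allele, whereas the deposited design sets floxed mice with ROSA-Cre against floxed mice without it. According to the methods, both groups received tamoxifen 2 weeks before the marrow was taken, and marrow of 10 WT or 5 KO mice was pooled before sorting. As described, both populations of a genotype were sorted from that pool, so the HSC pair and the CD41low/CD9low pair share mice and are not independent. Ages of the animals are not given in the sources used here. The Rosa promoter drives Cre in cells of all types, so the deletion was not limited to HSCs. Kit protein was a positive gate of the sort, and an antibody to Il7R was part of the lineage cocktail, so the Kit and Il7r genes encode proteins by which the cells were selected.

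Gfi1b itself had 9256 counts in WT and 49910 in KO HSCs, and 611 in WT and 9741 in KO CD41low/CD9low HSCs. The KO/WT ratio of normalized counts was therefore 6.65 in HSCs, against 10.6 for CD41low/CD9low HSCs. A count over the whole gene does not separate the deleted exons from those that remain, so it does not check the labels. Total counts on genes ran from 12732079 to 50781007 per library, and both CD41low/CD9low libraries were the shallower ones. All 12 HSC marker genes examined had counts in every library, and Slamf1, which encodes the gate marker CD150, had levels of 85.0, 109.5, 30.4 and 60.5 CPM in WT HSCs, KO HSCs, WT CD41low/CD9low HSCs and KO CD41low/CD9low HSCs. Of 12 lymphoid markers, 7 were at 0 in each of the shallower CD41low/CD9low libraries, 2 in WT HSCs and 0 in KO HSCs. All 12 neutrophil and monocyte markers also had counts in every library, so this trait is not particular to HSC markers. In pooled, sorted cells a lower RNA level can stand for fewer cells of a type or for less RNA per cell, and these cannot be told apart. The study names CD41 among integrins raised in Gfi1b-deficient HSCs. Its gene Itga2b was at 134 CPM in WT and 203 CPM in KO CD41low/CD9low HSCs, and Cd9 at 106.9 and 131.9 CPM. Whether the CD41low/CD9low gate took like cells in both genotypes was not tested.

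Kit, Flt3 and Tek are receptor tyrosine kinases, which dimerize on ligand binding and phosphorylate themselves. Csf2rb, Csf3r, Il6st and Il7r belong to the class I cytokine receptors, which have no kinase of their own and signal through bound Janus kinases and STAT transcription factors. Il1r1 carries a Toll and interleukin receptor domain and signals through Myd88, and Cxcr4 is a G protein-coupled receptor that holds HSCs in their marrow niche. Kit signaling is needed for the survival of HSCs, whereas Flt3 marks progenitors that have left the stem cell state.

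Gfi1b recognizes DNA with an AATC core, which reads GATT on the other strand. The 250 bases before the annotated start were searched on both strands in RefSeq sequence of GRCm38.p6, which had entries for 8 of the 9 receptors. AATC or GATT was found for 6 of these 8 receptors, or in 7 of their 10 windows, and 69.0% of all 32851 promoter windows of this length held it. A longer form, in which AATC is followed after 3 bases by GCA, occurred for 1 of the 8, Il1r1. It lay in 1 of the 10 windows, and in 2.6% of all windows. Kit and Cxcr4 had no match in these letters. The windows of Flt3, Il1r1 and Csf2rb2 are printed because their KO and WT levels lay far apart in at least 1 population, and capitals mark AATC or GATT. The Flt3 window lies at chr5:147400490-147400739 on the minus strand, the Il1r1 windows at chr1:40224830-40225079 and chr1:40266336-40266585 on the plus strand, and the Csf2rb2 window at chr15:78305722-78305971 on the minus strand.
Flt3: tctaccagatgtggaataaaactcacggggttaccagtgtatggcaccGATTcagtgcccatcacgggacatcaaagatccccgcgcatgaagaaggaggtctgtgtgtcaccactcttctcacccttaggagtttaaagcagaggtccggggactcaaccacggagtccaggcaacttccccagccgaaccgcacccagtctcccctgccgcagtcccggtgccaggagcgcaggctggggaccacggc
Il1r1, first start: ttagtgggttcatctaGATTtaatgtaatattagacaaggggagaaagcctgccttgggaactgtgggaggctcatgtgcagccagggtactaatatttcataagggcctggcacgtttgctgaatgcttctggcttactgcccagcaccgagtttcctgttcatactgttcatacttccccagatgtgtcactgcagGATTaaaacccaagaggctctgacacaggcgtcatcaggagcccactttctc
Il1r1, second start: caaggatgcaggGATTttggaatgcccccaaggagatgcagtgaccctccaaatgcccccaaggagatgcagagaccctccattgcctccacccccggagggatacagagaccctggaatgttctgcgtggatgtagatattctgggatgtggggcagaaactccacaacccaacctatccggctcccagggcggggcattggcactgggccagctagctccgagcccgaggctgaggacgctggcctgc
Csf2rb2: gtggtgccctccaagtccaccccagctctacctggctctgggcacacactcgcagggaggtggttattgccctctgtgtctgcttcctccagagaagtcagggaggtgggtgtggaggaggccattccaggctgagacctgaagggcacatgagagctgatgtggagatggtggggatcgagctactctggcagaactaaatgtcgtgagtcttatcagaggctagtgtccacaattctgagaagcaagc
The longer motif lies near the beginning of the second Il1r1 window, where it reads tgcagggatt. The Csf2rb2 window holds no match, and a match or its absence is a description of letters and not of binding.

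Levels were compared between genes as library-scaled counts (CPM, with TMM factors) per kilobase of exon. Kit was the most abundant of the 9 receptors in every library, at 114 CPM per kb in WT HSCs, 119 in KO HSCs, 114 in WT CD41low/CD9low HSCs and 140.3 in KO CD41low/CD9low HSCs. Cxcr4 came second in every library, at 45.3, 31.7, 107.6 and 76.3 CPM per kb in the same order. Il7r came last in every library, at 0.221, 0.244, 0.215 and 0 CPM per kb. The lower ranks differed between libraries. Flt3 was at 3.46 CPM per kb in WT HSCs, below Tek, Csf3r, Il6st and Csf2rb, and at 22.4 CPM per kb in WT CD41low/CD9low HSCs, where only Kit and Cxcr4 were higher. Neighbours in this order were separated by more than counting noise except Csf2rb and Csf3r in KO HSCs, Il1r1 and Csf2rb in WT CD41low/CD9low HSCs, and Tek and Csf3r in KO CD41low/CD9low HSCs.

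**Figure D1:**
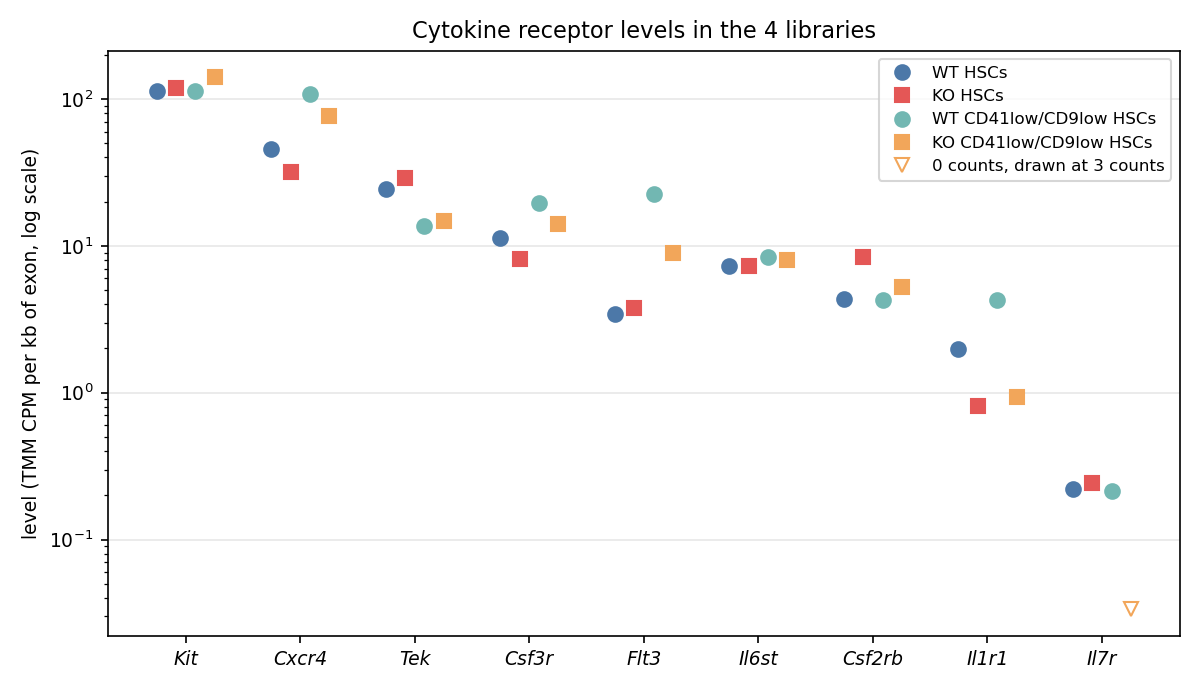
Levels of the 9 receptors in the 4 libraries, on a log scale of TMM-scaled CPM per kilobase of exon, with 1 point per library. Kit and Cxcr4 lie at the top in every library, while Flt3 ranges from 3.46 in WT HSCs to 22.4 in WT CD41low/CD9low HSCs.

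Within each population, KO was compared with WT by the ratio of normalized counts with its exact (Clopper-Pearson) 95% counting interval, and a ratio above 1.5 or below 0.6 was counted as higher or lower. These intervals cover counting error only. In HSCs, 1 receptor, Csf2rb, was above 1.5 and 1 receptor, Il1r1, was below 0.6, which is 22.2% of the 9. Of all 15910 genes kept in HSCs, 14.1% were above 1.5 and 10.3% below 0.6, or 24.4% together. In CD41low/CD9low HSCs, no receptor was above 1.5 and Flt3, Il1r1 and Il7r were below 0.6, which is 33.3% of the 9, against 13.5% above, 12.0% below and 25.5% together of all 14844 genes kept. Both shares lay near those of all genes. Il7r passed the filter of 10 counts in the CD41low/CD9low pair only through the WT library. The median log2 ratio of the 9 was 0.08 for the HSC pair, against -0.48 for the CD41low/CD9low pair with Il7r set at its bound, while the medians of all genes were close to 0 in both pairs.

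**Figure D2:**
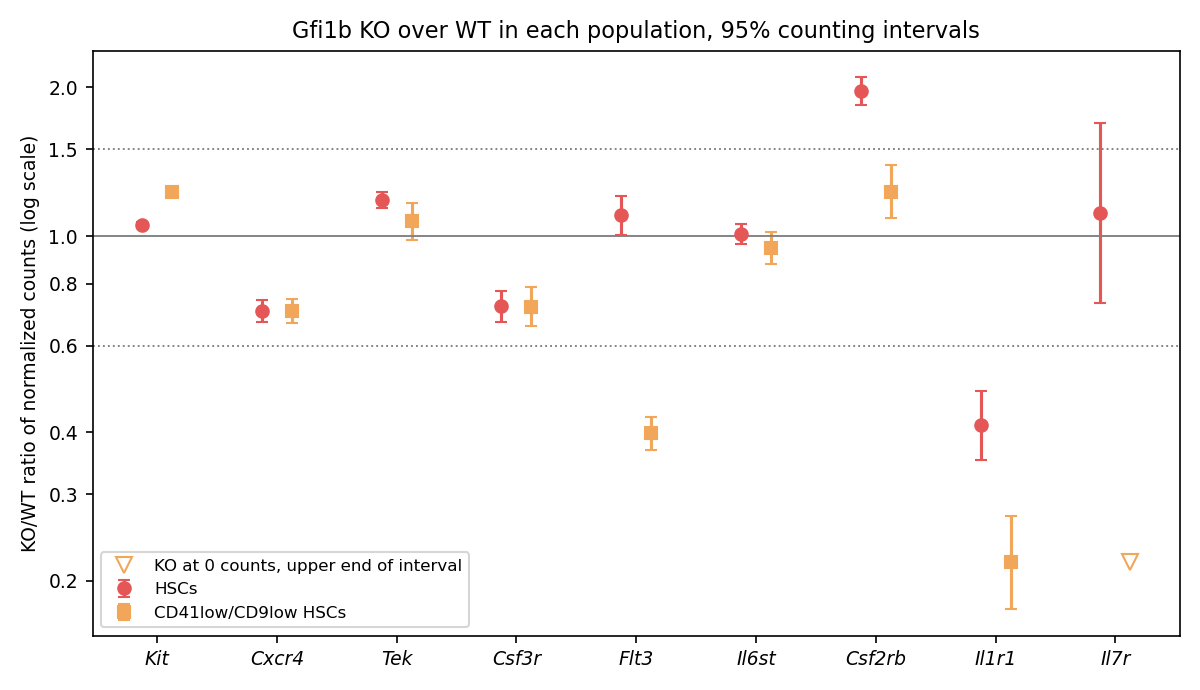
KO/WT ratio of normalized counts for each receptor in HSCs and in CD41low/CD9low HSCs on a log scale, with 95% counting intervals and dotted lines at 1.5 and 0.6. Il1r1 lies below 0.6 in both populations, Csf2rb above 1.5 in HSCs, and Flt3 below 0.6 in CD41low/CD9low HSCs.

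Among the tyrosine kinase receptors, Kit, the receptor of stem cell factor (ENSMUSG00000005672, chr5:75574916-75656722, plus strand, GRCm38), had 50235 counts in WT and 42956 in KO HSCs, against 13127 (WT) and 24141 (KO) for CD41low/CD9low HSCs. Its KO/WT ratio was 1.05 (1.04 to 1.07) in HSCs, against 1.23 (1.20 to 1.25) for CD41low/CD9low HSCs. Both intervals lay above 1 and both ratios lay inside the cutoffs, but with a correction for exon length the ratio in HSCs was 0.953, on the other side of 1. Tek, the angiopoietin receptor that keeps HSCs quiescent (chr4:94739289-94874976, plus strand), had 5720 (WT) and 5483 (KO) counts for HSCs, against 838 (WT) and 1346 (KO) for CD41low/CD9low HSCs. The ratios of Tek were 1.18 (1.14 to 1.23) and 1.07 (0.982 to 1.17), and the second interval included 1.

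Flt3, the receptor of Flt3 ligand (ENSMUSG00000042817, chr5:147330741-147400489, minus strand), had 1055 counts in WT and 941 in KO HSCs, against 1797 (WT) and 1073 (KO) for CD41low/CD9low HSCs. Once scaled, the level was close between the genotypes in HSCs, with a ratio of 1.10 (1.01 to 1.20), or 1.05 after the correction for exon length. In CD41low/CD9low HSCs the ratio was 0.398 (0.369 to 0.430), so the WT library stood well above the KO library. An antisense gene, Gm26597, overlaps Flt3 without sharing exons and had at most 20 counts in any library.

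Csf2rb, the signaling subunit shared by the receptors of GM-CSF, IL-3 and IL-5 (ENSMUSG00000071713, chr15:78325752-78353847, plus strand), had 1559 counts in WT and 2485 in KO HSCs, against 401 (WT) and 739 (KO) for CD41low/CD9low HSCs. The ratio was 1.97 (1.85 to 2.10) in HSCs, against 1.23 (1.09 to 1.39) for CD41low/CD9low HSCs. KO was thus the higher library in both pairs, and past the cutoff only in HSCs. Mice carry a related neighbour, Csf2rb2, which encodes a subunit for IL-3. Csf2rb2 had 395 counts in WT and 1833 in KO HSCs, a ratio of 5.73 (5.13 to 6.40), but 249 (WT) and 212 (KO) counts for CD41low/CD9low HSCs, a ratio of 0.568 (0.470 to 0.684). Stretches of 50 identical bases make up 12.3% of the Csf2rb exon windows and 18.4% of those of Csf2rb2, and stretches of 100 bases 4.63% and 6.82%, so the division of reads between them is uncertain. Summed, the pair had a ratio of 2.73 (2.59 to 2.88) in HSCs, against 0.975 (0.882 to 1.08) for CD41low/CD9low HSCs. The ratio above 1 of Csf2rb alone in CD41low/CD9low HSCs was therefore not seen in the sum, and Csf2rb2 made up 20.2% of the sum in WT HSCs and 42.4% in KO HSCs.

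Csf3r, the receptor of G-CSF (chr4:126024550-126044440, plus strand), had 2021 (WT) and 1179 (KO) counts for HSCs, against 916 (WT) and 988 (KO) for CD41low/CD9low HSCs. Scaled for depth, KO was below WT to nearly the same extent in both populations, at 0.720 (0.670 to 0.774) and 0.719 (0.657 to 0.788). Il6st, the signaling chain gp130 of the IL-6 family (chr13:112464070-112510086, plus strand), had 4025 and 3294 counts in HSCs and 1207 and 1714 in CD41low/CD9low HSCs. Its ratios were 1.01 (0.964 to 1.06) and 0.947 (0.879 to 1.02), both with 1 inside the interval, and the correction for exon length gave 0.886 in HSCs. Its level had the narrowest spread of the 9 over the 4 libraries, with a highest level 1.14 times the lowest. Il7r, the IL-7 receptor chain of lymphoid progenitors (chr15:9505788-9530176, minus strand), had 51 (WT) and 46 (KO) counts for HSCs, a ratio of 1.11 (0.731 to 1.69). In CD41low/CD9low HSCs it had 13 counts in WT and 0 in KO, where 3 counts would be 0.157 CPM. The interval of that ratio reached up to 0.219. Counts this low carry wide intervals, and at the depth of these libraries a low level in KO was not distinguishable from absence.

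Il1r1, the signaling receptor of IL-1 (ENSMUSG00000026072, chr1:40225080-40317257, plus strand), had 623 counts in WT and 209 in KO HSCs, against 351 (WT) and 115 (KO) for CD41low/CD9low HSCs. The level in KO was 0.414 (0.352 to 0.485) of that in WT in HSCs, or 2.42-fold lower, and 0.218 (0.175 to 0.270) in CD41low/CD9low HSCs, or 4.58-fold lower. It was the only receptor of the 9 past a cutoff in the same direction in both populations. Its co-receptor Il1rap, chosen after its values were seen, had ratios of 1.04 and 1.07.

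Cxcr4, the receptor of the niche chemokine Cxcl12 (ENSMUSG00000045382, chr1:128588199-128592293, minus strand), had 4051 counts in WT and 2317 in KO HSCs, against 2521 (WT) and 2663 (KO) for CD41low/CD9low HSCs. The ratio was 0.706 (0.670 to 0.743) in HSCs, against 0.704 (0.667 to 0.744) for CD41low/CD9low HSCs. KO was lower by nearly the same factor in both pairs, and neither ratio passed the cutoff.

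All 4 libraries entered 1 fit that asks for a KO effect common to both populations, by edgeR's quasi-likelihood test, Benjamini-Hochberg adjusted over 14940 genes. The populations, which share pooled mice, stand in for replicates here, with 1 residual degree of freedom, and the p-values measure only the spread between these libraries. Of all genes, 0.207% were higher and 0.0803% lower in KO at an adjusted p under 0.05. None of the 9 receptors passed this threshold, and 4 of them, Csf2rb, Csf3r, Il1r1 and Cxcr4, had an unadjusted p under 0.05, as did 9.07% of all genes. Il1r1 came closest, with a log2 difference of -1.73 (edgeR unadjusted p = 0.000394, adjusted p = 0.0921), and it was below WT in 2 of 2 pairs. It passed under 3 alternatives, namely DESeq2 (adjusted p = 0.0119), the legacy form of the quasi-likelihood test (adjusted p = 0.0128) and a filter of 50 counts (adjusted p = 0.0405), and not under RLE scaling (adjusted p = 0.120) or without a filter (adjusted p = 0.259). Cxcr4 had a log2 difference of -0.51 (edgeR adjusted p = 0.300), Csf3r of -0.48 (edgeR adjusted p = 0.421) and Csf2rb of 0.64 (edgeR adjusted p = 0.378). The Flt3 estimate of -0.60 (edgeR adjusted p = 0.576) averages ratios on opposite sides of 1.

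The same fit compared CD41low/CD9low HSCs with HSCs. The labels and methods state no CD41 or CD9 gate for the latter, although the study's results speak of them as positive for both, so whether they are all HSCs or those with more CD41 and CD9 is unclear, and with it what these folds compare. Of all genes tested, 6.69% were higher and 10.5% lower in CD41low/CD9low HSCs, and 31.9% had an unadjusted p under 0.05. Flt3, Cxcr4 and Csf3r were higher and Tek was lower, and these 4 calls held under every alternative run. Of these 4, Flt3 differed most, by 1.98 on the log2 scale (edgeR adjusted p = 0.00275), and it was higher in CD41low/CD9low HSCs in both genotypes, 6.50-fold (6.02 to 7.02) in WT and 2.39-fold (2.19 to 2.61) in KO. Cxcr4 was higher by 1.26 on the log2 scale (edgeR adjusted p = 0.000739), by 2.37-fold in WT and 2.41-fold in KO. Csf3r was higher by 0.80 (edgeR adjusted p = 0.0105), by 1.73-fold in WT and 1.75-fold in KO. Tek fell by 0.90 on the log2 scale (edgeR adjusted p = 0.00397), to 0.559 of the HSC level in WT and 0.514 in KO. Kit differed little in WT, at 0.997 (0.978 to 1.02) of the HSC level, and was 1.18-fold (1.16 to 1.20) higher in KO. Il1r1 was 2.15-fold (1.88 to 2.45) higher in WT CD41low/CD9low HSCs, whereas in KO the ratio of 1.15 (0.910 to 1.45) held 1. The 2 populations were counted on gene lists that differ, and they differed in depth and gate, which cannot be told apart from the population itself.

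**Figure D3:**
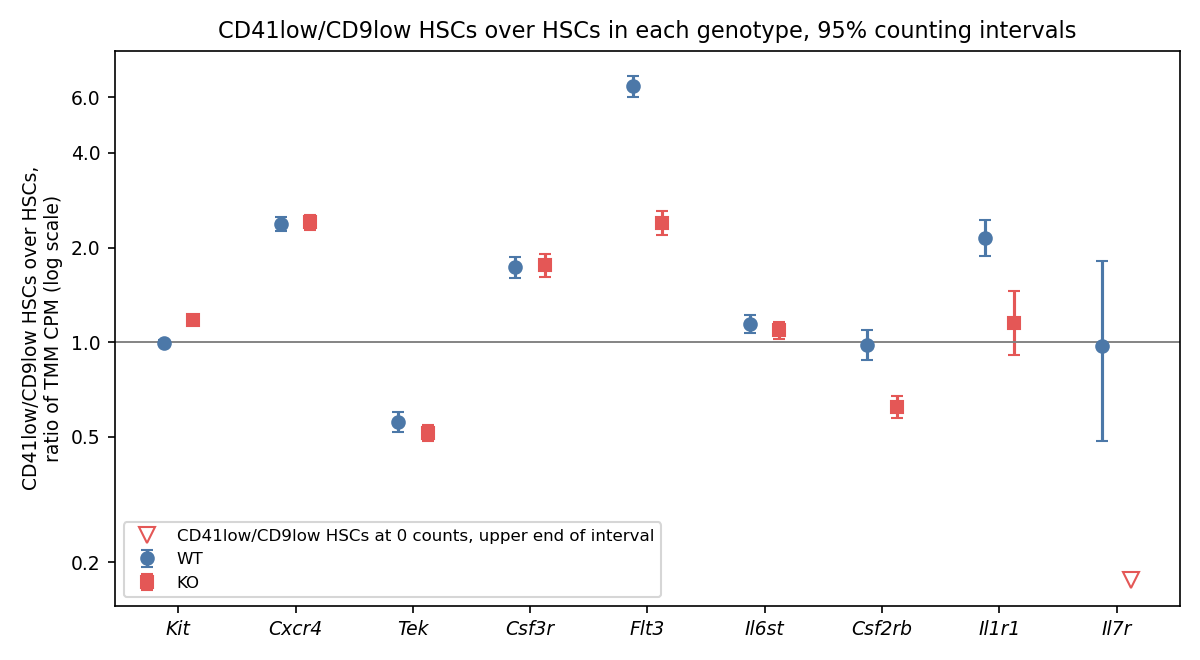
Level of each receptor in CD41low/CD9low HSCs relative to HSCs, in WT and in KO, as a ratio of TMM-scaled CPM on a log scale with 95% counting intervals. Flt3, Cxcr4 and Csf3r lie above 1 and Tek below 1 in both genotypes, and the triangle marks the upper end of the interval for Il7r, which had no count in KO CD41low/CD9low HSCs.

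Markers of other cells moved with some of these values. Neutrophil and monocyte markers, such as Elane and Mpo, summed to 1491 CPM in WT and 556.5 CPM in KO CD41low/CD9low HSCs, where all 12 had ratios below 1 and 11 of 12 were below 0.6. Of all genes kept there, 12.0% were below 0.6. Other lists held such markers too, among them 7 of 9 erythroid and 2 of 3 mast cell and basophil markers kept. The lymphoid list held 3 of 5 kept, and Il7r is itself among these 3. Each of these 3 lists also had 1 marker above 1.5, and no megakaryocyte or HSC marker kept was below 0.6. In the same pair Flt3, Il1r1 and Il7r were below 0.6. Csf3r (0.719) and Cxcr4 (0.704) were also lower in KO there, with intervals below 1 but ratios inside the cutoffs. In HSCs the neutrophil and monocyte markers summed to 715 and 769.6 CPM and none was below 0.6. No marker of this list was at 0 in any library, and Il1r1 was also lower in KO HSCs. Immediate-early genes such as Fos and Egr1, which are induced rapidly by stimulation, summed to 6344 CPM in WT and 2376 CPM in KO HSCs. All 24 were below 1 in that pair and 21 were below 0.6, against 10.3% of all genes. Il1r1 was below 0.6 there, and Csf3r and Cxcr4 were lower in KO with ratios inside the cutoffs. In CD41low/CD9low HSCs the immediate-early genes summed to 1041 and 1001 CPM. Of the 20 kept there, 4 were below 0.6 and 2 above 1.5, beside 12.0% and 13.5% of all genes. Csf3r and Cxcr4 had nearly the same ratios there as in HSCs. The part of any of these lists in the receptor values was not tested.

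The genes whose values over the 4 libraries were nearest to those of a receptor, by Euclidean distance of 3 log2 ratios among 11516 genes with a mean normalized count of at least 100, were named for the 4 receptors with counts in every library whose level varied most. The nearest genes to Flt3 were 2410017I17Rik at a distance of 0.33 and Ripply3 at 0.52, and those to Il1r1 were Zcchc18 at 0.33 and Ipcef1 at 0.46. The nearest genes to Cxcr4 were Eno2 at 0.06 and Cd86 at 0.08, and those to Csf3r were Sugp1 at 0.05 and Etv5 at 0.07.

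The genes around the receptors were grouped by role. Median log2 KO/WT ratios in HSCs were 0.14 for the ligands, 0.10 for partner chains and decoys, 0.05 for other cytokine receptors, 0.01 for signal carriers and 0.14 for brakes. The same medians for CD41low/CD9low HSCs were 0.23, 0.10, -0.01, -0.01 and 0.10. Of 17 ligands matched, which do not include Flt3l, 10 passed the filter in HSCs, where 3 were above 1.5 and 2 below 0.6, and 8 passed in CD41low/CD9low HSCs, with 2 above and 2 below. Past either cutoff were 24.4% of all genes for the HSC pair, against 25.5% for the CD41low/CD9low pair. Kitl, which encodes stem cell factor, had 14 counts in WT and 94 in KO HSCs (ratio 8.29, 4.70 to 15.7), and Il6 had 26 and 107 (5.08, 3.28 to 8.13). In CD41low/CD9low HSCs both were below the filter, Kitl with 0 (WT) and 1 (KO) counts and Il6 with 0 in each library. Il1b, a ligand of Il1r1, had 120 (WT) and 28 (KO) counts for HSCs (0.288, 0.184 to 0.438). Il1b in CD41low/CD9low HSCs had 35 counts in WT and 0 in KO. Tslp, a cytokine that signals through Il7r and Crlf2, had a ratio of 1.84 (1.39 to 2.44) in HSCs, against 1.21 for CD41low/CD9low HSCs. Angpt1, the ligand of Tek, was chosen after its values were seen as it was by far the most abundant ligand, with 66431 (WT) and 52665 (KO) counts for HSCs, and its ratios were 0.979 and 1.12.

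Of 15 partner chains and decoys, 13 passed the filter in each pair, with 2 above 1.5 and 1 below 0.6 in HSCs and 3 above and 3 below in CD41low/CD9low HSCs, beside 24.4% and 25.5% of all genes past either cutoff. Besides Csf2rb2, Il6ra, the IL-6 binding chain that works with Il6st, was at 0.654 in HSCs, against 0.513 (0.408 to 0.645) for CD41low/CD9low HSCs. Il3ra, which binds IL-3 and signals through Csf2rb, was at 0.984 in HSCs, against 1.68 (1.40 to 2.02) for CD41low/CD9low HSCs. Il2rg, the common gamma chain that pairs with Il7r, was at 1.55 (1.45 to 1.66) in HSCs, against 1.07 for CD41low/CD9low HSCs.

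Among 24 other cytokine receptors, 23 passed in HSCs, with 5 above 1.5 and 2 below 0.6, and 22 in CD41low/CD9low HSCs, with 1 above and 5 below. That is 7 of 23 and 6 of 22 past either cutoff, near the 24.4% and 25.5% of all genes. Il18r1, the IL-18 receptor chain, had 484 counts in WT and 132 in KO HSCs (0.337, 0.276 to 0.409), and 48 and 1 in CD41low/CD9low HSCs. Csf1r, the receptor of M-CSF and a marker of monocytes, was at 1.20 in HSCs, against 0.1699 (0.106 to 0.264) for CD41low/CD9low HSCs. Ccr2, a chemokine receptor of monocytes, was at 2.35 (2.06 to 2.68) and 0.338 (0.222 to 0.505). Epor, the erythropoietin receptor, was at 0.655 (0.591 to 0.726) and 2.79 (2.03 to 3.89). These ratios lay on opposite sides of 1 in the pairs. The 11 neutrophil and monocyte markers below 0.6 in CD41low/CD9low HSCs included Csf1r.

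The 28 signal carriers all passed the filter in both pairs, with 2 above 1.5 and 1 below 0.6 in HSCs and 2 above and 0 below in CD41low/CD9low HSCs, beside 24.4% and 25.5% past either cutoff among all genes. Irs2, an adaptor of several receptors, had 1541 counts in WT and 547 in KO HSCs (0.438, 0.397 to 0.483), and was at 1.23 (1.05 to 1.43) in CD41low/CD9low HSCs. Fyn, a Src family kinase, was at 1.64 in HSCs, against 1.37 for CD41low/CD9low HSCs. Tyk2, a Janus kinase, and Stat2 were at 1.04 and 0.995 in HSCs, and at 1.58 (1.45 to 1.71) and 1.53 (1.40 to 1.69) in CD41low/CD9low HSCs.

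Of 23 brakes of the receptors, 22 passed in HSCs, with 4 above 1.5 and 3 below 0.6, and 23 in CD41low/CD9low HSCs, with 1 above and 2 below, where 24.4% and 25.5% of all genes were past either cutoff. Socs3, which blocks gp130 and G-CSF receptor signaling, had 1304 counts in WT and 186 in KO HSCs (0.176, 0.150 to 0.205), and 35 and 95 in CD41low/CD9low HSCs (1.81, 1.22 to 2.75). Rgs1, which limits chemokine receptor signaling, was at 0.483 (0.471 to 0.496) in HSCs, against 0.804 for CD41low/CD9low HSCs. Dok2, an adaptor that dampens kinase signaling, was lower in both pairs, at 0.426 (0.396 to 0.457) and 0.571 (0.510 to 0.638), with a log2 difference of -1.03 in the shared fit (edgeR adjusted p = 0.0814). Cbl, a ubiquitin ligase that removes activated Kit and Flt3, was at 2.03 (1.95 to 2.12) in HSCs, against 1.36 for CD41low/CD9low HSCs. Immediate-early genes were lower in the same HSC pair as Irs2, Socs3 and Rgs1, and their part in these ratios was not tested. No gene of these 5 lists passed the shared genotype test. Of all genes tested, 0.207% passed as higher and 0.0803% as lower in KO, so few calls could fall in lists of this size.

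**Figure D4:**
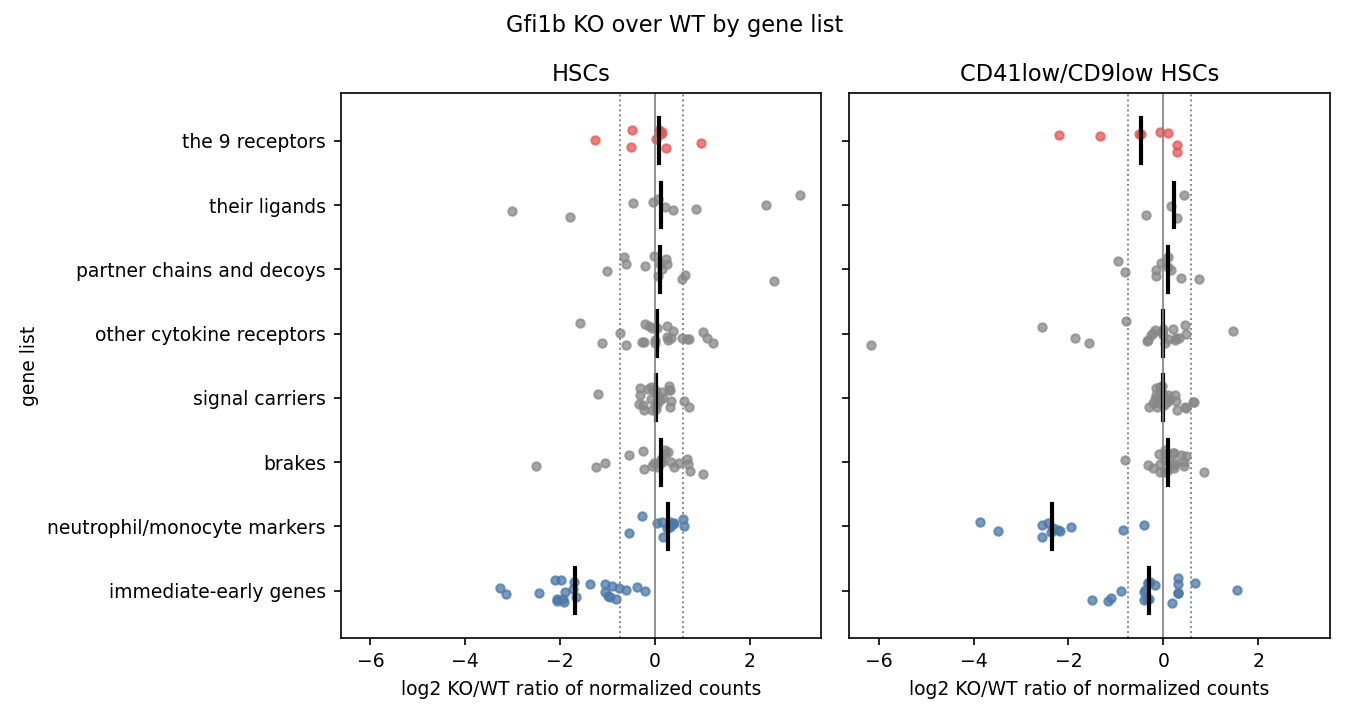
Log2 KO/WT ratio of the receptors, the 5 lists around them and 2 marker lists in each population, with 1 point per gene, black bars for the median and dotted lines at the cutoffs of 1.5 and 0.6. The medians of the 5 lists lie between -0.01 and 0.23, the neutrophil and monocyte markers lie below 0 in CD41low/CD9low HSCs and the immediate-early genes lie below 0 in HSCs; genes with no count in 1 library count toward the median but are not drawn.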

How the data were processed

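RNA was measured in 4 libraries of sorted cells, 1 per group. The authors aligned the reads to mm10 with TopHat 2.0.10, processed the alignments with Samtools and used HTSeq on Ensembl genes, and the deposited values are raw counts per gene. The HTSeq strand setting and annotation release are not given in the sources used here. HSC and CD41low/CD9low libraries list 38293 and 41214 genes, and only the 37140 genes in common entered the fit across populations. Reads assigned to no feature were left out. Per 100 gene counts they numbered 80 in WT and 105.3 in KO HSCs, and 62.0 in WT and 60.1 in KO CD41low/CD9low HSCs.

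Size factors were medians of ratios in each pair, and a gene was kept where 1 library of the pair reached 10 counts. Clopper-Pearson intervals cover counting error only. In the shared fit (edgeR 4.0.16 under R 4.3.3, TMM, population and genotype as terms) a gene needed 10 counts in 2 libraries or more. Both computations were tested on simulated data. Positions and exon lengths came from GENCODE M21 of GRCm38. Alternatives were DESeq2 1.42.0, the legacy quasi-likelihood test, other scalings, filters, a pseudocount of 1, a cutoff of 1/1.5 for lower ratios and a correction for exon length (running median, 500 genes of like length). From each list, at most 4 genes were named, those with the largest absolute log2 KO/WT. For this a gene needed at least 50 counts in a library and a count above 0 in both libraries of the pair. The receptors and lists were chosen with earlier results of these data known. Counts from 12732079 to 50781007 per library set the precision, so that 3 counts equal 0.0591 to 0.236 CPM.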

Additional observations from a re-analysis of the deposited data

Results flagged for a closer look

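The KO/WT ratio lay on opposite sides of 1 in the 2 populations, with each counting interval apart from 1, for 8 of the receptors and list genes whose ratios are given above. Genes of the lists not named above met the same rule, among them Crlf2 (0.862 in HSCs and 1.30 in CD41low/CD9low HSCs) and Il27ra (1.11 and 0.895). The share of all genes that met it was not counted. For Flt3 the interval in HSCs began at 1.007, close to 1. The difference of the log2 ratios, CD41low/CD9low HSCs minus HSCs, was -1.47 for Flt3, -3.33 for Csf2rb2, -2.82 for Csf1r and -2.80 for Ccr2. It was 2.09 for Epor, 1.49 for Irs2, 3.36 for Socs3 and 0.20 for Angpt1, whose ratios were both close to 1. These differences were not tested, since an interaction term would leave no residual degree of freedom among the 4 libraries. For Csf2rb2 the counts are uncertain, since it holds stretches of sequence identical to Csf2rb. How many reads they share was not measured.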

How the results depend on the processing

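Counts of genes past the cutoffs moved with the filter on low counts. In HSCs, 2248 genes were above 1.5 and 1639 below 0.6. Without a filter these were 4354 and 2649, and with at least 50 counts 1431 and 792. In CD41low/CD9low HSCs, 1998 genes above 1.5 became 3121 without a filter and 982 with at least 50 counts, and 1788 below 0.6 became 702 with at least 50 counts. The shared genotype test called 31 genes higher and 12 lower. DESeq2 called 70 and 31, the legacy quasi-likelihood test 80 and 46, the test without a filter 20 and 6, and that with at least 50 counts 50 and 21. Of the receptors it called 0, against 1 with DESeq2, with the legacy test and with at least 50 counts, Il1r1 each time. The population test called 1000 genes higher, and 630 without a filter. A filter changes the number of genes tested, and the cause of the other shifts was not tested. For single genes, 222 values stayed within their error or on their side of the threshold, 7 moved and 3, all of Il1r1, newly passed it, and no ratio past a cutoff changed direction. Ratios inside the cutoffs that crossed 1 were those of Kit and Il6st in HSCs, under the correction for exon length and for Il6st also with total-count scaling (0.997), and that of Csf2rb in CD41low/CD9low HSCs when summed with Csf2rb2 (0.975). Counts of Csf2rb and Csf2rb2 summed were added after seeing the data. No paired analysis was possible because the labels give no replicate numbers and each group holds 1 library. The shared fit, with population as a term, already sets KO against WT within each population, and leaving out a library would leave no residual degree of freedom.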

Other observations

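Other marker lists were read in the same libraries, as sums of TMM-scaled CPM in WT HSCs, KO HSCs, WT CD41low/CD9low HSCs and KO CD41low/CD9low HSCs. Megakaryocyte markers summed to 1900, 2708, 675.5 and 826 CPM, so that both CD41low/CD9low libraries were lower. In the population test, 10 of these 12 genes were lower in CD41low/CD9low HSCs, as were 10.5% of all genes tested. Itga2b and Cd9 were among the 10, and they encode CD41 and CD9, by which these cells were gated. Markers of multipotent progenitors, Flt3 among them, summed to 373, 291, 648 and 475 CPM. Lymphoid markers, Il7r among them, summed to 211.5, 227, 46.5 and 61.2 CPM. Erythroid markers summed to 189.6, 159.8, 196 and 68.3 CPM, mast cell and basophil markers to 35.05, 41.7, 11.03 and 3.88 CPM, and endothelial and stromal markers to 303, 380.0, 325 and 320.2 CPM. HSC markers, Kit among them, summed to 2687, 2935, 2749 and 3205 CPM.

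The niche chemokine Cxcl12, chosen after its values were seen, had 56 (WT) and 59 (KO) counts for HSCs, against 60 (WT) and 0 (KO) for CD41low/CD9low HSCs. Il21r, chosen likewise, was at 0.462 in HSCs, against 0.582 for CD41low/CD9low HSCs.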
